A study of Equus caballus with 24 samples.

Results

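The 9 genes described here make, carry, bind, sense or break down retinoic acid, the active form of vitamin A. They are RBP4, STRA6, ALDH1A1, ALDH1A2, ALDH1A3, CRABP1, CRABP2, RARB and CYP26B1, and they are 9 of the 24232 genes with deposited reads and of the 24248 with a deposited RPKM, found by their gene name in both tables. The 9 genes were chosen by their role in this pathway and with their measured levels in these 24 libraries known, so their levels and differences are given as a description, with no test. RNA was sequenced from the pituitary and from long bone ends (epiphyses) of female horses (Equus caballus) of a small and a larger breed, the Debao pony (DP) and the Mongolian horse (MH). Each of 8 groups held 3 libraries. The juvenile Debao pony pituitary is called DPPJ and the adult one DPPA, and the juvenile and adult Mongolian horse pituitary MHPJ and MHPA. The long bone of the same breeds and stages is called DPLBJ, DPLBA, MHLBJ and MHLBA. All groups are untreated animals, juveniles under and adults over 3 years of age by the study's definition.

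Vitamin A travels in the blood as retinol, bound to the carrier RBP4 (retinol binding protein), and enters cells through the membrane receptor STRA6. Inside the cell, retinol is oxidised to retinal, and the dehydrogenases ALDH1A1, ALDH1A2 and ALDH1A3 oxidise retinal to retinoic acid. CRABP1 and CRABP2 bind retinoic acid in the cytoplasm, and CRABP2 hands it to nuclear receptors such as RARB, a receptor whose own gene is a classical target of retinoic acid. CYP26B1 breaks retinoic acid down. In the pituitary, retinoic acid is known to act on the hormone cells and their precursors, and in the growth plate it regulates the maturation of cartilage cells.

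Reads counted on genes came to 11433209 to 23573036 per pituitary library and 11616518 to 27007342 per long bone library. Levels are in RPKM, reads scaled to the length of the gene and the size of the library, the unit in which genes of different length can be compared. The pituitary label was checked against 9 markers of anterior pituitary hormone cells. Their summed RPKM was 23206 to 44676 in 7 pituitary libraries, namely all 3 DPPJ libraries and replicates 2 and 3 of DPPA and of MHPA. It was 1265 in DPPA replicate 1, 24.8 in MHPA replicate 1 and 31.7 to 112 in the 3 MHPJ libraries, where TSHB was listed at 0. CHGA alone gave 1226 RPKM in DPPA replicate 1, with GH at 6.47 and PRL at 1.16 RPKM. It gave 22.2 RPKM in MHPA replicate 1, and 112 and 73.4 RPKM in MHPJ replicates 1 and 3. In these 5 libraries, the summed RPKM of 5 pituicyte and astrocyte markers was 2268 to 5412, against 16.1 to 152 in 6 of the other 7 and 2114 in DPPJ replicate 2. The sum of MHPJ replicate 2 was nearly all S100B (2919 RPKM), with GFAP at 26.45, AQP4 at 1.86, SLC1A3 at 1.24 and SLC1A2 at 0.40 RPKM. The long bone label was checked against 5 osteoblast markers, which summed to 644 to 13781 RPKM in its 12 libraries and to 2.98 to 24.6 in the pituitary. Cartilage was uneven there, as 5 chondrocyte markers summed to 1.53 to 4039 RPKM in DPLBJ and 43.5 to 3476 RPKM in DPLBA. They summed to 1.53 to 2.62 RPKM in MHLBJ and 2.84 to 175 RPKM in MHLBA. Their part in the levels below was not tested. A further sum of 7 hepatocyte markers, a list added after seeing the data, was 156830 reads in MHLBA replicate 2 and 21885 in DPPJ replicate 2, against 25 to 592 in the other 22 libraries. In bulk RNA, fewer cells of a type and less RNA per cell cannot be told apart.

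RBP4 (ENSECAG00000016270), the carrier, was at its lowest in MHPJ. Its level was 9.21, 21.7 and 21.1 RPKM in the DPPJ libraries and 0.29, 0.49 and 0.30 RPKM in the MHPJ libraries, where each value rested on 5 or 6 reads. The medians of the adult pituitaries lay between them, and their libraries overlapped DPPJ, at 1.64, 9.41 and 3.79 RPKM in DPPA and 4.24, 11.4 and 10.0 RPKM in MHPA. MHPJ thus lay below every other group without overlap, long bone included. In the long bone, RBP4 was 6.86, 5.82 and 5.97 RPKM in DPLBJ, 4.10, 0.93 and 2.86 RPKM in MHLBJ, and 11.9, 3.94 and 16.8 RPKM in DPLBA. The MHLBA libraries gave 5.38, 55.0 and 4.73 RPKM. The single value of 55.0 RPKM came from MHLBA replicate 2, the library with the highest sum of hepatocyte markers, and liver is known as the main source of RBP4. The part of liver RNA in this level was not tested.

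STRA6 (ENSECAG00000016969), the uptake receptor, was a low transcript in every group. It ranged from 1.63 to 5.93 RPKM over the 12 pituitary libraries, with a median of 2.36 RPKM, and from 0.06 to 2.59 RPKM over the 12 long bone libraries, with a median of 0.59 RPKM. The lowest group was DPLBJ, at 0.19, 0.43 and 0.06 RPKM, which lay below MHLBJ at 0.80, 0.58 and 0.60 RPKM without overlap. The adult long bones were more uneven, at 1.83, 0.33 and 2.59 RPKM in DPLBA and 0.19, 1.70 and 1.72 RPKM in MHLBA.

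ALDH1A1 (ENSECAG00000019343) carried most of the synthesis enzyme transcripts in all 24 libraries. In the pituitary, its level was 556, 642 and 567 RPKM in DPPJ and 121, 78.0 and 52.4 RPKM in MHPJ. In the adults it was 114, 527 and 500 RPKM in DPPA and 122, 341 and 542 RPKM in MHPA, so that replicate 1 of either breed stood with MHPJ rather than with its own group. The long bone held 63.1, 81.9 and 52.1 RPKM in DPLBJ and 268, 192 and 244 RPKM in MHLBJ. Adult long bones overlapped between the breeds, at 126, 46.4 and 116 RPKM in DPLBA and 88.2, 258 and 150 RPKM in MHLBA. In order of the group medians, only DPPJ lay above its next neighbour, DPPA, without overlap, and the following groups overlapped their neighbours.

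ALDH1A2 (ENSECAG00000014750), the main enzyme of retinoic acid synthesis in the embryo, was a pituitary transcript in these libraries except in MHPJ. It measured 30.2, 41.8 and 50.5 RPKM in DPPJ, 6.53, 43.9 and 29.1 RPKM in DPPA and 17.8, 20.2 and 45.8 RPKM in MHPA. In MHPJ it measured 1.89, 1.02 and 1.09 RPKM, which is within the range of 0.78 to 5.36 RPKM over the 12 long bone libraries. The 3 upper groups were all from the pituitary and overlapped each other, and the lowest of them, MHPA, lay above the highest long bone group without overlap.

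ALDH1A3 (ENSECAG00000008871) had the opposite tissue pattern. All 12 long bone libraries held 5.54 to 32.7 RPKM, with group medians of 10.6 RPKM for DPLBJ, 16.6 RPKM for MHLBJ, 21.1 RPKM for DPLBA and 19.8 RPKM for MHLBA, and these 4 groups overlapped. In 11 of the 12 pituitary libraries it was between 0.06 and 2.45 RPKM. The exception was MHPJ replicate 2 with 23.1 RPKM, against 1.37 and 0.29 RPKM in the other MHPJ libraries. That library also had the highest summed RPKM of markers of fibroblasts and meninges in the pituitary (509, against 22.0 to 77.4 in the other 11 libraries) and 551 RPKM over the striated muscle markers. Their part in its ALDH1A3 level was not tested.

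**Figure D1:**
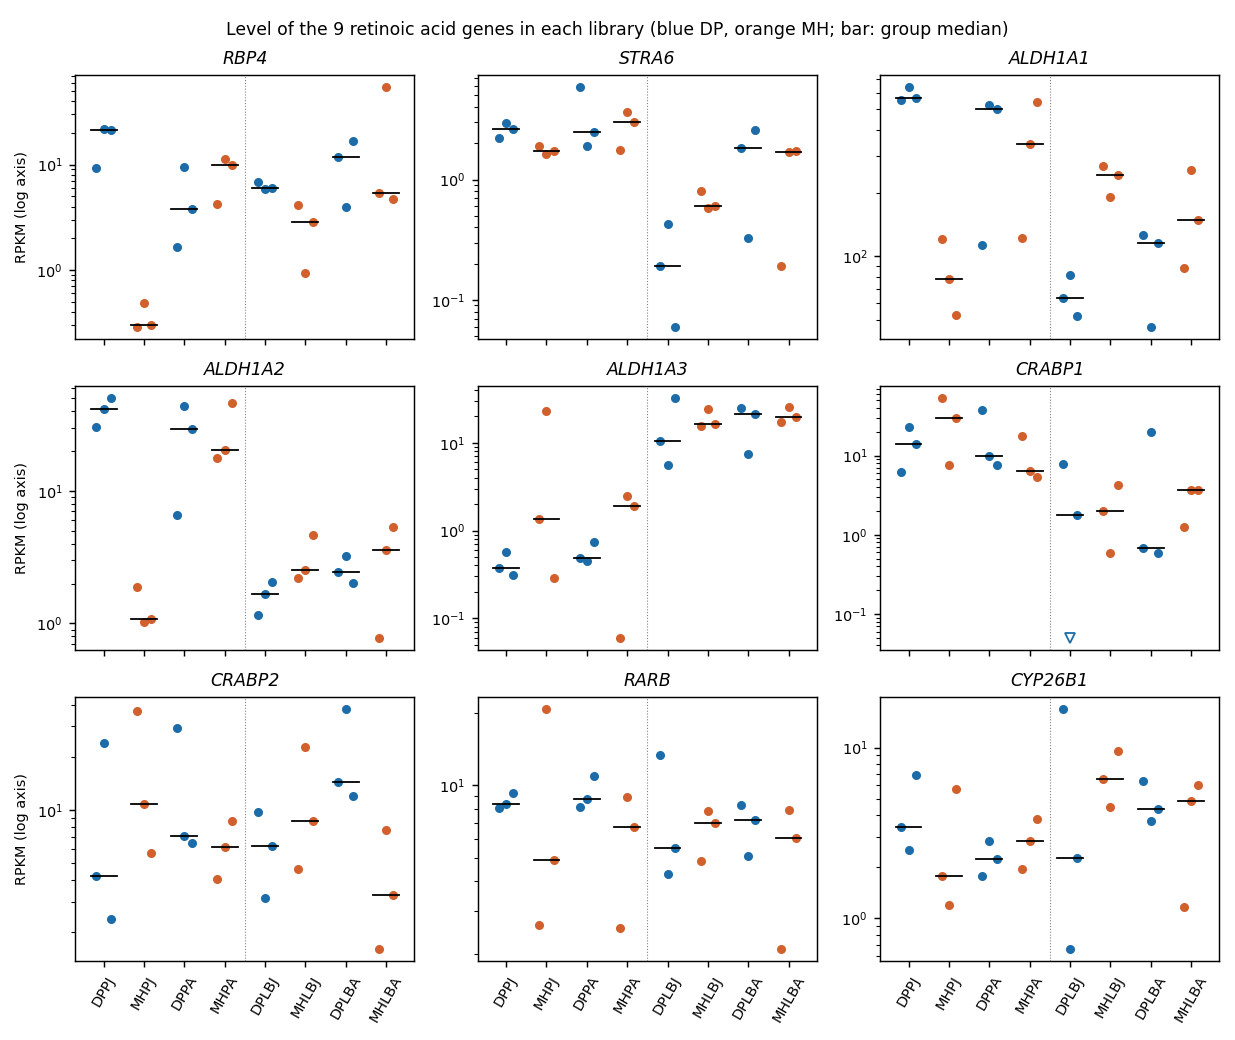
RPKM (log axis) of the 9 genes in each of the 24 libraries, by group, with pituitary groups left and long bone groups right of the dotted line in each panel. Points are libraries (blue DP, orange MH), bars are group medians, and the open triangle is CRABP1 in DPLBJ replicate 2, listed at 0; RBP4 and ALDH1A2 were lowest in MHPJ, and ALDH1A3 lay at 5.54 RPKM or more in all long bone libraries.

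As shares of the summed RPKM of the 3 dehydrogenases, the make-up of the family differed by tissue. ALDH1A1 took 91.8% to 94.8% of the sum in DPPJ, 92.2% to 94.4% in DPPA and 87.3% to 93.8% in MHPA, and the rest was nearly all ALDH1A2 (5.15% to 12.7% over these 9 libraries). In the long bone the place of ALDH1A2 was taken by ALDH1A3, which made up 5.50% to 37.6% of the sum, against 0.735% to 5.62% for ALDH1A2. MHPJ differed from the other pituitary groups, with ALDH1A2 at 0.999% to 2.03% and ALDH1A3 at 0.539% to 22.6%. The sum itself was 630 ± 50.1 RPKM (SD, n = 3) in DPPJ and 93.5 ± 36.1 RPKM in MHPJ. In the juvenile long bone it was 83.6 ± 7.67 RPKM in DPLBJ and 257 ± 34.3 RPKM in MHLBJ, so that the breeds stood in opposite order in the juvenile pituitary and the juvenile long bone.

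**Figure D2:**
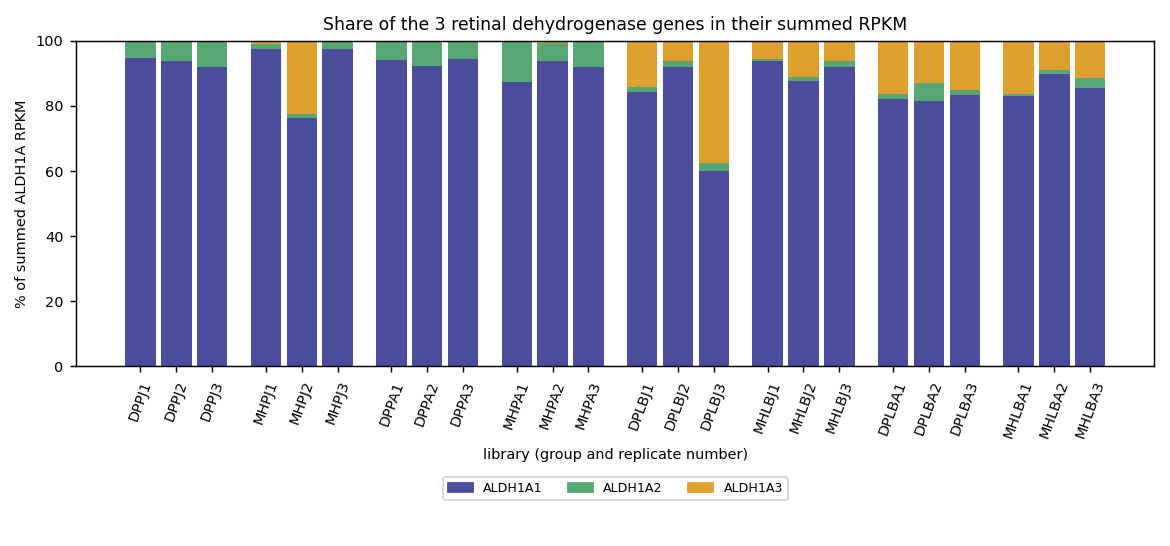
Share (%) of ALDH1A1, ALDH1A2 and ALDH1A3 in their summed RPKM, 1 bar per library. ALDH1A1 was the largest share in all 24 libraries, and ALDH1A2 was the second in all pituitary libraries except MHPJ replicate 2. ALDH1A3 was the second in that library and in all long bone libraries, and reached 37.6% in DPLBJ replicate 3.

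CRABP1 (ENSECAG00000015978) was more abundant in the pituitary than in most long bones. Its levels were 6.15, 22.8 and 14.2 RPKM in DPPJ, 53.8, 7.52 and 29.6 RPKM in MHPJ, 37.7, 10.0 and 7.60 RPKM in DPPA and 17.7, 6.33 and 5.37 RPKM in MHPA. The highest 3 values, 53.8, 37.7 and 29.6 RPKM, came from libraries with a hormone marker sum of 1265 RPKM or less and a neuron marker sum of 1263 to 1504 RPKM, against 201 to 497 RPKM in the other 9 pituitary libraries, and the part of neurons was not tested. In the long bone, 11 of 12 libraries held between 0 and 7.92 RPKM, and DPLBA replicate 2 held 19.8 RPKM. DPLBJ replicate 2 had 0 of 15814874 reads on CRABP1, which allows up to 3 reads, as counting error alone goes.

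CRABP2 (ENSECAG00000016560) was the binding gene whose breeds stood apart in the adult long bone. In the adult long bone it measured 14.4, 37.8 and 11.9 RPKM in DPLBA and 1.61, 7.67 and 3.25 RPKM in MHLBA, without overlap. In the juveniles the order of the medians was turned, at 9.80, 3.15 and 6.24 RPKM in DPLBJ and 4.59, 23.0 and 8.61 RPKM in MHLBJ, with overlap. The pituitary groups all overlapped and held single high libraries: 24.1 RPKM in DPPJ replicate 2, 36.9 RPKM in MHPJ replicate 1 and 29.3 RPKM in DPPA replicate 1. In MHPA it was 4.03 to 8.60 RPKM.

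RARB (ENSECAG00000016976), the receptor, varied little between group medians. Its group medians ran from 4.90 RPKM in MHPJ to 8.76 RPKM in DPPA, and each group overlapped the next in this order. The DPPJ libraries were close together at 8.03, 8.33 and 9.29 RPKM, whereas the MHPJ libraries gave 2.64, 20.8 and 4.90 RPKM. The value of 20.8 RPKM was that of MHPJ replicate 2, the library with high ALDH1A3. In the long bone RARB ranged from 2.09 to 13.3 RPKM.

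CYP26B1 (ENSECAG00000022724), the breakdown enzyme, had group medians from 1.76 RPKM in MHPJ to 6.58 RPKM in MHLBJ, and all neighbours in that order overlapped. It ranged from 1.20 to 6.88 RPKM over the pituitary and from 0.66 to 16.9 RPKM over the long bone. Both ends of the long bone range came from DPLBJ, whose libraries gave 16.9, 0.66 and 2.25 RPKM. DPLBJ replicate 1, with 16.9 RPKM, also gave the highest long bone RARB, and its fibroblast marker sum was 12654 RPKM, against 1423 and 6336 RPKM in the other DPLBJ libraries. COL1A2 alone gave 11008 RPKM of the 12654. DPLBA replicate 2 had a higher sum, 13564 RPKM, with 3.72 RPKM of CYP26B1 and 5.11 RPKM of RARB. The part of fibroblasts in these levels was not tested.

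The first comparison asks how the breeds differ in the juvenile pituitary. Differences were taken from the reads with edgeR's quasi-likelihood fit, as a log2 fold change with its SE, and the threshold of a difference was that of the study, an unadjusted P under 0.05 with a fold change over 2. RBP4 was higher in DPPJ than in MHPJ by 5.39 ± 0.52 on the log2 scale (SE, 3 libraries a group), ALDH1A2 by 4.75 ± 0.32 and ALDH1A1 by 2.64 ± 0.31, and their groups did not overlap. STRA6, at 0.37 ± 0.25, did not overlap either, which made 4 of 9 genes without overlap, beside 42.5% of the 14603 tested. ALDH1A3 was lower by 4.54 ± 1.65 (log2 fold change -4.54), but its groups overlapped and without MHPJ replicate 2 the log2 fold change was -1.09. RBP4, ALDH1A1, ALDH1A2 and ALDH1A3 were past the threshold, 4 of 9 genes, where 20.3% of the 14603 genes tested were. Since the genes were chosen with these values known, nothing is read from either count. RBP4, ALDH1A1 and ALDH1A2 stayed past it in all 6 fits that left out 1 library, the one without DPPJ replicate 2 and its hepatocyte markers included. The hormone marker sum moved with these 3 genes, at 35907 to 44676 RPKM in DPPJ and 31.7 to 112 RPKM in MHPJ. The pituicyte and astrocyte sum was 44.0 to 2114 RPKM in DPPJ and 2268 to 2949 RPKM in MHPJ, where the 2949 RPKM of replicate 2 was nearly all S100B. The sum of 5 myelin markers was 87.3 to 1551 RPKM in DPPJ and 2769 to 4549 RPKM in MHPJ. The part of these sums in the differences was not tested.

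Taking the juvenile and adult pituitary libraries together, ALDH1A1 and ALDH1A2 went with the hormone markers, in a split chosen after seeing the data. Over the 7 pituitary libraries with a hormone marker sum of at least 23206 RPKM, ALDH1A1 was 341 to 642 RPKM. It was 52.4 to 122 RPKM in the other 5, which include all MHPJ libraries. ALDH1A2 was 20.2 to 50.5 RPKM against 1.02 to 17.8 RPKM, again without overlap. RBP4 was 3.79 to 21.7 RPKM against 0.29 to 4.24 RPKM, so that DPPA replicate 3 and MHPA replicate 1 overlapped. The libraries low in hormone markers were not alike, since MHPA replicate 1 had 17.8 RPKM of ALDH1A2 and 4.24 RPKM of RBP4 where the MHPJ libraries had at most 1.89 and 0.49 RPKM. The other 6 genes overlapped between these 2 sets of libraries as well, and no share of all genes is given for this split. Among the adults alone, only replicate 1 of each breed was low in these markers. In MHPA, replicate 1 had 17.8 RPKM of ALDH1A2, against 20.2 and 45.8 RPKM in replicates 2 and 3.

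**Figure D3:**
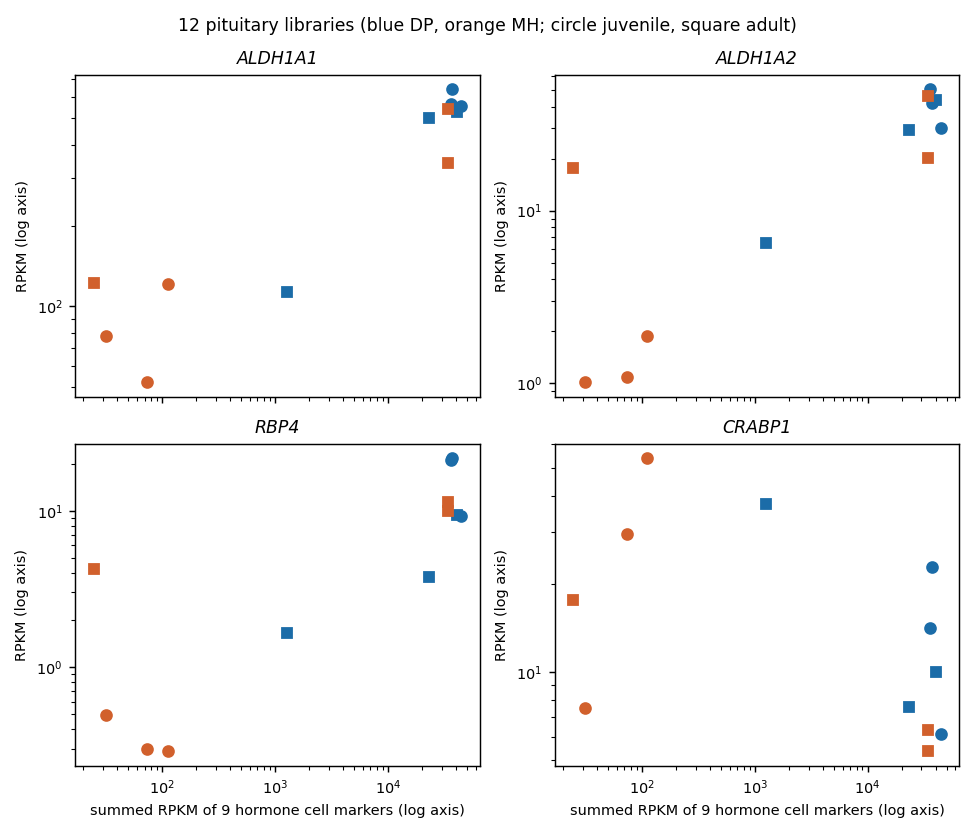
RPKM of ALDH1A1, ALDH1A2, RBP4 and CRABP1 (log axes) in the 12 pituitary libraries against the summed RPKM of 9 anterior pituitary hormone cell markers. Points are libraries (blue DP, orange MH, circles juvenile, squares adult); the 7 libraries with sums of 23206 RPKM or more held 341 to 642 RPKM of ALDH1A1, and the 5 others 52.4 to 122 RPKM.

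In the adult pituitary, none of the 9 genes was past the threshold between DPPA and MHPA with edgeR, nor with DESeq2, and 2.93% of 14376 genes were. ALDH1A1 differed by 0.36 ± 0.66 (log2, SE) and ALDH1A2 by 0.07 ± 0.67, with both breeds holding 1 library low in hormone markers. RBP4 differed by -0.60 ± 0.66 and CRABP2 by 1.42 ± 0.71. With replicate 1 of both groups left out, an alternative chosen after seeing the data, ALDH1A3 was past the threshold at -1.69 ± 0.46. In that fit ALDH1A1 stood at 0.40 ± 0.26 and RBP4 at -0.48 ± 0.47.

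In the juvenile long bone, ALDH1A1 was lower in DPLBJ than in MHLBJ, by a log2 fold change of -1.66 ± 0.32 (SE, 3 libraries a group), and the groups did not overlap. It was past the threshold in each of the 6 fits that left out 1 library. RBP4 was higher in DPLBJ, by 1.41 ± 0.57, but was past the threshold in only 1 of these 6 fits. These 2 of 9 genes stood beside 13.8% of 13755 genes. STRA6 was at -1.29 ± 0.76 and ALDH1A2 at -0.79 ± 0.43, both short of the threshold. ALDH1A1, RBP4, STRA6 and ALDH1A2 did not overlap between the groups, 4 of 9 genes beside 23.5% of the 13755. The summed RPKM of 6 adipocyte markers was 1833 to 4108 in DPLBJ and 7448 to 9503 in MHLBJ, and that of 4 endothelial markers 155 to 236 and 403 to 411. The striated muscle sum, at 0.72 to 1.51 and 6.15 to 193 RPKM, and that of choroid plexus and ependyma markers, at 2.47 to 4.30 and 9.03 to 17.5 RPKM, did not overlap either. These sums moved with ALDH1A1, and their part in its difference was not tested.

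In the adult long bone, CRABP2 was higher in DPLBA than in MHLBA by 2.39 ± 0.64 on the log2 scale. It was past the threshold in all 6 fits without 1 library, with values from 1.62 to 3.05. It was the only one of the 9 genes past the threshold, beside 18.3% of 14073 genes, and the only one without overlap, beside 24.2% of them. The osteoblast marker sum was 3576 to 7051 RPKM in DPLBA and 644 to 2218 RPKM in MHLBA, also without overlap. The 2 neutrophil markers found summed to 218 to 367 RPKM in DPLBA and 0.23 to 10.8 RPKM in MHLBA, and those of choroid plexus and ependyma, low in either group, to 1.95 to 2.37 and 6.75 to 12.8 RPKM. The part of these sums in the CRABP2 difference was not tested. ALDH1A1 was at -0.84 ± 0.42. RBP4, at -0.98 ± 0.90, turned to 0.79 without MHLBA replicate 2, and CRABP1, at 1.39 ± 1.26, turned to -2.18 without DPLBA replicate 2, the library with 19.8 RPKM.

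The stage comparisons set juveniles against adults of the same breed and tissue, and so share groups with the breed comparisons. In the Mongolian horse pituitary, RBP4 was lower in MHPJ than in MHPA (log2 fold change -4.31 ± 0.53), as were ALDH1A2 (-4.17 ± 0.47) and ALDH1A1 (-1.76 ± 0.53). These 3 of 9 genes were past the threshold, beside 7.74% of 14430 genes, and MHPJ is the group low in hormone markers. ALDH1A1 fell short of it without MHPA replicate 3 (-1.22) or MHPJ replicate 3. ALDH1A3 was at 2.83 ± 1.79 (-0.59 without MHPJ replicate 2), CRABP1 at 1.69 ± 0.86 and CRABP2 at 1.68 ± 0.70, all short of it.

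In the Debao pony pituitary only RBP4 was past the threshold, higher in DPPJ than in DPPA by 1.68 ± 0.65 on the log2 scale, beside 3.56% of 14533 genes. It fell short without DPPA replicate 3, DPPJ replicate 2 or DPPJ replicate 3. ALDH1A1 and ALDH1A2, at 0.54 ± 0.50 and 0.52 ± 0.59, were within about 1 SE of no difference.

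In the Mongolian horse long bone RBP4 was lower in MHLBJ than in MHLBA (-3.12 ± 1.02), the only gene of the 9 past the threshold, beside 2.91% of 13899 genes. Without MHLBA replicate 2, the library with 55.0 RPKM and the hepatocyte markers, the value was -1.36 and short of the threshold. It was also short of it without MHLBJ replicate 2 (-2.71) or MHLBJ replicate 3 (-3.17). In the Debao pony long bone STRA6 (-2.64 ± 0.96) and CRABP2 (-1.75 ± 0.63) were lower in DPLBJ than in DPLBA, 2 of 9 genes beside 3.14% of 13866 genes. Each fell short in 3 of 6 fits that left out 1 library, and CRABP2 stood at -0.96 in the lowest of them, without DPLBA replicate 2.

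**Figure D4:**
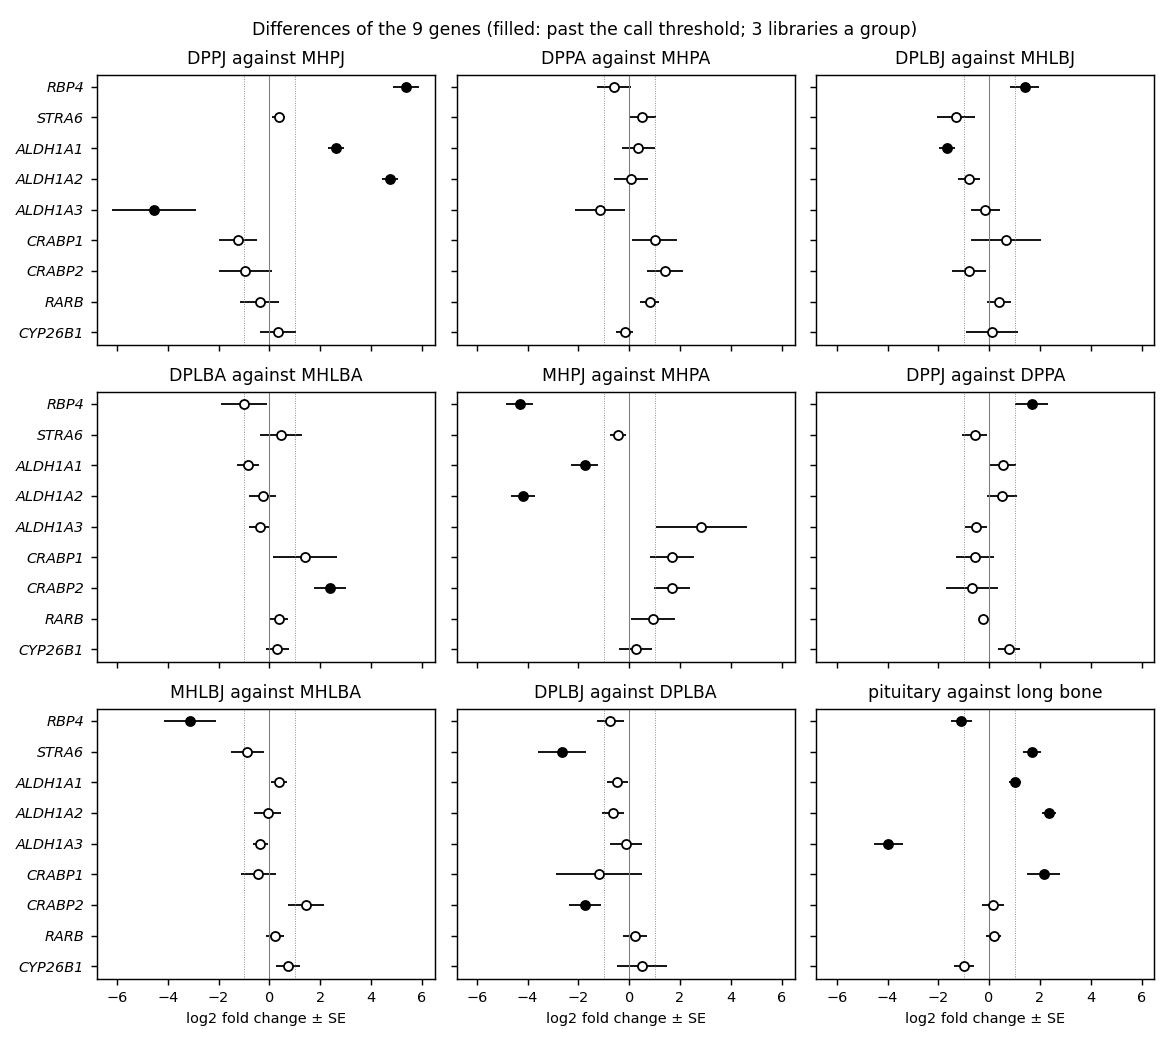
Log2 fold change ± SE of the 9 genes in 9 comparisons, positive where the group named first was higher. Filled points were past the threshold (unadjusted P under 0.05 and fold change over 2, dotted lines at a fold change of 2); RARB and CYP26B1 were past it in none of the 9 with all libraries in the fit.

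Over all groups, with each group given the same weight, the pituitary was compared with the long bone. The libraries were taken as independent, though by the study's methods both tissues came from the same horses. ALDH1A3 was lower in the pituitary, with a log2 fold change of -3.97 ± 0.57 (SE, 12 libraries a tissue), and RBP4 was lower at -1.09 ± 0.40. ALDH1A2 was higher by 2.35 ± 0.28, CRABP1 by 2.14 ± 0.66, STRA6 by 1.71 ± 0.35 and ALDH1A1 by 1.02 ± 0.25. These 6 of 9 genes were past the threshold, where 38.9% of 16131 genes were. With the 5 pituitary libraries low in hormone markers left out, an alternative chosen after seeing the data, ALDH1A2 stood at 3.62 ± 0.26, ALDH1A1 at 1.78 ± 0.20, ALDH1A3 at -4.75 ± 0.38 and STRA6 at 1.63 ± 0.40. CRABP1 was then short of the threshold at 1.12 ± 0.72, and RBP4 changed sign to 0.22 ± 0.45. RBP4 was also short of it at -0.63 without MHLBA replicate 2, and ALDH1A1, close to a fold change of 2, was past it in 14 of 24 fits that left out 1 library.

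The other genes of the pathway were taken from a list of 47 symbols, of which 37 were found. They were tested with edgeR's quasi-likelihood fit, with p-values adjusted over all genes by Benjamini-Hochberg, and the list's log2 fold changes had a median of -0.27 between pituitary and long bone, beside 0.03 over all genes. In this comparison 15 of the 32 list genes tested were past the threshold, beside 38.9% of all genes, and all 15 had an adjusted p under 0.05. Of them 5 were higher in the pituitary and 10 lower. RPE65, the isomerase of the visual cycle, had 7 to 1145 reads in the pituitary libraries and 8 reads in all 12 long bone libraries together (adjusted p = 1.04e-07). CYP26A1, which like CYP26B1 breaks down retinoic acid, was higher in the pituitary by 3.94 ± 0.76 (adjusted p = 0.00028), but at no more than 2.32 RPKM. TTR, the plasma partner of RBP4, was past the threshold as well (adjusted p = 0.00857), with 12029 RPKM in MHPA replicate 1 and at most 24.8 RPKM in the other pituitary libraries. Without MHPA replicate 1 the adjusted p was 0.0913, and without DPPA replicate 1 it was 0.105. MHPA replicate 1 also had the highest sum of choroid plexus and ependyma markers (320 RPKM, against 12.6 to 95.6 RPKM in the other 11). Choroid plexus is known for its TTR, and its part was not tested.

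Of the genes known to respond to retinoic acid, RARRES1 and TGM2 were lower in the pituitary, and RARRES2 and RAI1 were short of the threshold. RARRES1 measured 4.79 to 76.1 RPKM over the pituitary and 108 to 635 RPKM over the long bone, without overlap (log2 fold change -4.72 ± 0.41, adjusted p = 2.28e-08). DHRS9, a retinol dehydrogenase, was lower by 4.61 ± 0.58 (log2 fold change -4.61, adjusted p = 2.06e-06), as were DHRS3 and RDH12, which convert between retinol and retinal. Among the 5 receptors, RXRG was higher, RARA, RARG and RXRA were lower, and RXRB was short of the threshold. None of the 6 receptor cofactors was past the threshold in this comparison, and all 6 had fold changes under 2. With the 5 pituitary libraries low in hormone markers left out, 18 of the 32 were past the threshold, and no share of all genes is given for that fit. RARA (-0.79 ± 0.13) and TTR (1.09 ± 1.35) were then short of it, and RARRES2 (-1.40 ± 0.24), RAI1 (1.01 ± 0.22), RDH5 (-2.13 ± 0.64), RDH10 (1.24 ± 0.15) and RBP5 (1.14 ± 0.51) were past it.

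**Figure D5:**
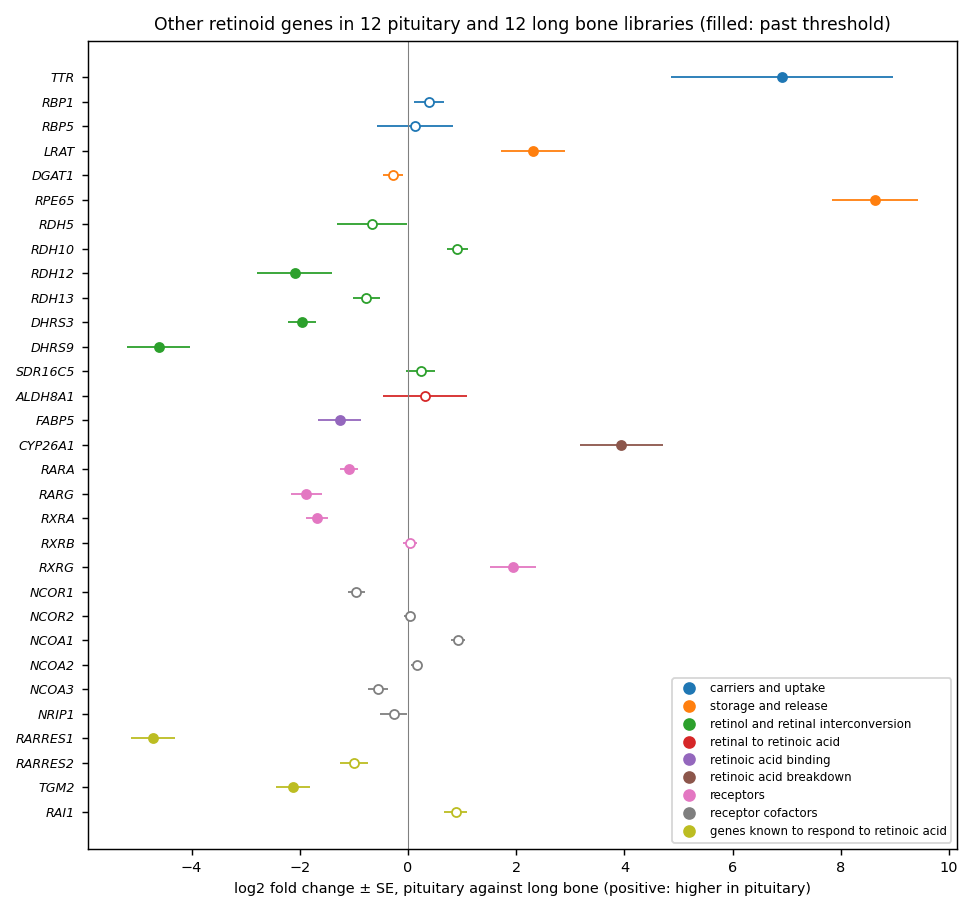
Log2 fold change ± SE of 31 of the 32 other retinoid genes tested, pituitary against long bone (12 libraries each), coloured by role and filled where past the threshold. RARRES1, DHRS9 and DHRS3 were among the 10 lower in the pituitary and RPE65, TTR and CYP26A1 among the 5 higher; fitted values of genes with few reads in a tissue depend on the prior count of the fit.

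Between the breeds, 1 of 25 list genes was past the threshold in the juvenile pituitary, beside 20.3% of all genes, and 2 to 5 were in each of the 6 fits that left out 1 library. FABP5, which like CRABP2 carries retinoic acid but to other nuclear receptors, was lower in DPPJ by 1.82 ± 0.40 (log2 fold change -1.82, adjusted p = 0.0438), with 73.0, 76.6 and 29.8 RPKM in DPPJ and 216, 141 and 201 RPKM in MHPJ. Its adjusted p ranged from 0.000557 to 0.263 over the alternatives, and its direction was the same in all 12. The hormone, pituicyte and myelin marker sums moved with it between these groups, and their part was not tested. In the adult pituitary 0 of 24 were past it with edgeR and 0 with DESeq2, and 1 had an unadjusted p under 0.05. FABP5 was highest in the libraries low in hormone markers there, at 572 RPKM in DPPA replicate 1 and 394 RPKM in MHPA replicate 1, against 130 to 136 RPKM in the other DPPA and 24.5 to 34.6 RPKM in the other MHPA libraries. Without replicate 1 of both groups FABP5 was higher in DPPA by 2.36 ± 0.19 (adjusted p = 0.017). Replicate numbers went together in this comparison only, and with a replicate block 2 of 24 list genes, RXRG and FABP5, were past the threshold (adjusted p = 0.342 and 0.333). No share of all genes is given for the block.

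In the juvenile long bone 2 of 24 list genes were past the threshold, beside 13.8% of all genes. Without 1 library the count ran from 0 (without MHLBJ replicate 3) to 6 (without DPLBJ replicate 1). DGAT1, which can esterify retinol, was higher in DPLBJ by 1.19 ± 0.49 (adjusted p = 0.271), and SDR16C5, a retinol dehydrogenase, was lower (log2 fold change -1.05 ± 0.40, adjusted p = 0.244). In the adult long bone 7 of 28 were past it, beside 18.3% of all genes, and none of these had an adjusted p under 0.05. TTR had 0 reads in each DPLBA library and 796, 2573 and 6 reads in MHLBA (adjusted p = 0.0735), so that no fold is given and MHLBA replicate 3 stood close to the floor of 3 reads. Its highest value came from MHLBA replicate 2 with the hepatocyte markers, as for RBP4. ALDH8A1, a further retinal dehydrogenase, was lower in DPLBA (0.06, 0.15 and 0.26 RPKM, against 1.33, 1.30 and 1.50 RPKM in MHLBA; log2 fold change -3.31 ± 0.67, adjusted p = 0.0519), and so was RDH10, which makes retinal from retinol (-1.34 ± 0.32, adjusted p = 0.0701). TGM2 and RAI1, both known to respond to retinoic acid, were higher in DPLBA by 1.97 ± 0.61 and 1.38 ± 0.40 (adjusted p = 0.113 and 0.0979). The receptor RARG was higher by 1.02 ± 0.40 (adjusted p = 0.17).

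Between the stages, 3 of 25 list genes were past the threshold in the Mongolian horse pituitary, beside 7.74% of all genes. RPE65 (log2 fold change -3.59 ± 1.03) and RDH10 (-1.14 ± 0.46) were lower in MHPJ than in MHPA, and CYP26A1 was higher by 3.48 ± 1.28, with adjusted p from 0.37 to 0.427. In the Debao pony pituitary FABP5 was 1 of 26, beside 3.56% of all genes (-2.40 ± 0.75, adjusted p = 0.419). In the Mongolian horse long bone 3 of 28 were past it, beside 2.91% of all genes, namely ALDH8A1 (-5.71 ± 0.82), FABP5 (1.50 ± 0.22) and TTR, each with an adjusted p of 0.998, and in the Debao pony long bone, beside 3.14% of all genes, 0 of 24 with edgeR, 1 with DESeq2 and 3 at an unadjusted p under 0.05.

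The last question was whether the breed difference depended on the stage. Among the 9 genes, the difference between the breed differences of juveniles and adults in the pituitary was 6.01 ± 0.92 (log2, SE) for RBP4, 4.69 ± 0.85 for ALDH1A2 and 2.30 ± 0.80 for ALDH1A1, given as a description. In the long bone it was -3.24 ± 1.02 for CRABP2 and 2.36 ± 1.18 for RBP4. Of the other pathway genes, 0 of 28 in the pituitary and 0 of 29 in the long bone had an adjusted p under 0.05 for this interaction in edgeR's fit, and 3 and 4 had an unadjusted p under 0.05. The lowest adjusted p was 0.207 in the pituitary and 0.971 in the long bone.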

How the data were processed

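Total RNA of 24 tissue samples was depleted of ribosomal RNA and made into directional libraries, per the labels. Reads were trimmed and mapped to EquCab 3.0 by the authors, who deposited whole-number counts of reads per gene, not normalized, and RPKM values, scaled by the authors to gene length and library size. The study's methods name Salmon, whereas the submitters' processing notes name bcl2fastq, TopHat2 and edgeR. Whether strand was used in counting is not given in the sources used here. All 9 genes were found once in each table, and all passed the filter on low counts in every comparison.

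Counts were tested in R 4.3.3 with edgeR 4.0.16 (quasi-likelihood test, TMM, filterByExpr with a minimum count of 10), each pair of groups on its 6 libraries and the tissues on all 24, each group weighted equally. SE is the log2 fold change divided by the root of the F statistic. Adjusted p-values are Benjamini-Hochberg over all genes tested. The alternatives were DESeq2 1.42.0, limma 3.58.1 on log2(RPKM + 1) and log2(RPKM + 0.1), no filter, all 12 libraries of a tissue in 1 fit, a replicate block, and leaving out each library. The code was tested on simulated data. The members and lists were chosen with earlier results of these data known. Named were all 9 members, and of the pathway list up to 6 genes past the threshold with the largest fold change in each breed or tissue comparison and up to 3 in each stage comparison. For each member, the 3 genes with the highest Pearson r over the tissue of its higher median were named. A result of the list is not reported here. Genes named by role beside these (DHRS3, RDH12, the receptors) were chosen after their values were seen.

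The study's methods give 3 horses per breed and stage, so the 3 libraries of a group are taken as 3 animals. By these methods both tissues came from the same horses, which makes pituitary and long bone libraries paired. No label ties a library to an animal, and outside the replicate block the tissue comparison took the libraries as independent. Replicates of a group differed by more than sampling noise. Same-numbered samples of DPPA and MHPA deviated together over genes (r = 0.621, 0.486 and 0.33), which no label explains, and in no other pair of groups were all 3 correlations over 0.1. In both DPPA and MHPA, replicate 1 was the library low in hormone markers (1265 and 24.8 RPKM). The part of this in the correlations was not tested. No sequences, positions or annotation of the authors' build were used here.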

Additional observations from a re-analysis of the deposited data

How the results depend on the processing

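No difference of the 9 genes that was past the threshold changed sign in 342 values under these alternatives (20 differences). RBP4 between the tissues did, to 0.22, when the 5 pituitary libraries low in hormone markers were left out, an alternative chosen after seeing the data. The counts under alternatives listed below have no share of all genes beside them, and nothing is read from them about these genes. Counts of members past the threshold ranged, over fits without 1 library, from 3 to 5 in DPPJ against MHPJ (4 with all libraries), 0 to 1 in DPPA against MHPA (0), 1 to 2 in DPLBJ against MHLBJ (2), 1 to 2 in DPLBA against MHLBA (1), 2 to 4 in MHPJ against MHPA (3), 0 to 2 in DPPJ against DPPA (1) and in MHLBJ against MHLBA (1), 0 to 3 in DPLBJ against DPLBA (2) and 5 to 7 between the tissues (6). For the pathway list the ranges were, in the same order, 2 to 5 (1), 0 to 1 (0), 0 to 6 (2), 6 to 8 (7), 1 to 5 (3), 0 to 3 (1), 3 to 4 (3), 0 to 3 (0) and 15 to 17 (15). RARB and CYP26B1 each passed it only in fits without 1 library.

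With all 12 libraries of a tissue fitted together, members past the threshold in DPLBJ against MHLBJ were 1, and list genes were 2 in DPPJ against MHPJ, 1 in DPPA against MHPA, 1 in DPLBJ against MHLBJ, 7 in MHPJ against MHPA, 0 in DPPJ against DPPA and 2 in DPLBJ against DPLBA. With no filter on low counts, list genes were 4 in DPPJ against MHPJ, 5 in MHPJ against MHPA, 2 in DPPJ against DPPA and 2 in DPLBJ against DPLBA. With limma on log2(RPKM + 1), which shrinks differences of low genes, members were 0 in MHLBJ against MHLBA and 1 in DPLBJ against DPLBA, and list genes 4 in DPPJ against MHPJ, 2 in DPPJ against DPPA, 1 in DPLBJ against DPLBA and 9 between the tissues. With 0.1 as the added value, list genes were 6, 5, 2 and 2 in DPPJ against MHPJ, DPLBJ against MHLBJ, DPPJ against DPPA and DPLBJ against DPLBA. With DESeq2, members were 2 in MHLBJ against MHLBA, and list genes 2 in DPPJ against DPPA and 1 in DPLBJ against DPLBA. The cause of these moves was not tested.

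With the replicate block, members in DPLBJ against DPLBA were 0, and list genes 3 in DPPJ against MHPJ, 2 in DPPA against MHPA, 1 in DPLBJ against MHLBJ and 2 in DPLBJ against DPLBA. The block moved no other count by over 1.5 times, and outside DPPA and MHPA the replicates share only a number. In DPPA and MHPA, replicate 1 of both was also low in hormone markers. Without replicate 1 of DPPA and of MHPA, chosen after seeing the data, 1 member and 1 list gene were past the threshold there. The counts under the alternatives have no share of all genes beside them. For the interaction of breed and stage, 0 genes had an adjusted p under 0.05 in either tissue, also with no filter or with the block. Depth limits RBP4 in MHPJ (5 or 6 reads a library) and STRA6 in DPLBJ (3 to 18 reads).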

Other observations

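For each of the 9 genes, the 3 genes whose TMM-scaled log2 levels went most closely with it over the 12 libraries of 1 tissue are given with Pearson's r. They are a description over libraries that differ in depth and in tissue make-up, and the part of these in the r values was not tested. ALDH1A1 in the pituitary went with EYA1 (r = 0.981), DYRK4 (0.979) and HMGN1 (0.975), and ALDH1A2 with EMB (0.984), MSX1 (0.979) and TTC23L (0.97). EYA1 is a transcriptional cofactor and MSX1 a homeobox gene. RBP4 in the pituitary went with ALKBH1 (0.976), YAE1D1 (0.969) and IFT20 (0.966). CRABP1 went with GRIN1 (0.953), an NMDA receptor subunit of neurons, DRAXIN (0.949) and PTN (0.941), in the same libraries that had the high neuron marker sums. RARB went with ATP2C2 (0.936), CLEC1A (0.93) and PRRG3 (0.915). STRA6 went with SYNRG (0.835), FEZF1 (0.825) and AVP (0.825), the vasopressin gene. In the long bone, ALDH1A3 went with ZBTB43 (0.919), CBLL1 (0.891) and GRPEL2 (0.879), CRABP2 with NPVF (0.889), ITGA11 (0.853) and GDPD5 (0.838), and CYP26B1 with VAV2 (0.929), MPRIP (0.915) and SGSM2 (0.913).

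Single libraries held reads of genes of organs other than the labelled tissue, and TTR and RBP4 were read in them. ALB had 68202 reads in MHLBA replicate 2 and 9330 in DPPJ replicate 2. RBP4 had 1452 and 431 reads in these 2 libraries, and TTR 2573 and 380. DPPJ replicate 3 held 460 reads of RBP4 and 65 reads over all 7 hepatocyte markers. MHLBA replicate 1 had 16614 reads of GCG, the glucagon gene, and 796 of TTR, with 97 of RBP4. These genes were picked after seeing the data, and their part in the members' levels was not tested.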
